A study of Mus musculus with 4 samples.

Results

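The genes described here are the replication-dependent histone genes of the mouse histone clusters, taken as every row of the count tables whose symbol starts with Hist and a digit. There were 67 such genes of 26687 gene symbols: 6 for linker histone H1, 20 for H2A, 17 for H2B, 11 for H3 and 13 for H4. Between 62 and 67 of them were listed in each library's file, and 62 had UMIs in the kept cells of every library. The study profiled single cells from bone marrow of the limbs and sternum of C57BL/6 mice aged 8 to 11 weeks, sorted as long-term hematopoietic stem cells, the cells that renew the blood system over a lifetime. The genotypes were MxCRE (called Mx, the reference control), NPMc+ (cytoplasmic mutant nucleophosmin), Flt3-ITD (an internal tandem duplication in the Flt3 receptor) and NPMc+/Flt3-ITD, which carries both. The labels do not say whether the other genotypes also carry MxCRE, how any allele is driven or switched on, or how many animals were pooled. Each genotype was 1 library, so no spread between animals could be measured. All intervals below are exact 95% intervals for counting error only, and no comparison has a p-value. Where values of the libraries follow each other without names, their order is Mx, NPMc+, Flt3-ITD, and last the library with both alleles.

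Cluster histone genes supply the histone protein that packs newly copied DNA, and their mRNAs accumulate mainly in S phase. H2A, H2B, H3 and H4 form the nucleosome core, while H1 binds the linker DNA between nucleosomes. Most of these genes have no introns, and their mature mRNAs end just after a conserved stem-loop that is bound by the protein Slbp, without a poly(A) tail. Some members also give polyadenylated transcripts that run past the stem-loop, for example in cells that have left the cell cycle. The libraries here were made from poly(A) RNA with a 3′ kit, which primes on poly(A). A histone level below is therefore the level of the transcripts that this capture caught, and not the total histone mRNA.

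The stem-loops are shown because they mark where the usual histone mRNA ends, and the annotated sequence beyond them is what a polyadenylated transcript would add. The stem-loop core, GGNNC followed by TTTT and NAGNNCC without a gap (N is any base), was searched on the transcript strand of GENCODE M21 transcripts (GRCm38, the assembly that mm10 stands for). It was found in 43 of the 67 members, and in 124 of 141767 transcripts overall (0.0875%). The 16 core bases are in capitals and up to 5 bases on each side in lower case, all written as DNA:
Hist1h2ap (H2A, chr13:21833026-21833049, minus strand): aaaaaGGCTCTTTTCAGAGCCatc
Hist2h2aa1 (H2A, chr3:96246027-96246052, plus strand): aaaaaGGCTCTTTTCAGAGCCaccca
Hist1h2ae (H2A, chr13:23570663-23570688, minus strand): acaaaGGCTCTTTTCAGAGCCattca
Hist1h2ac (H2A, chr13:23683472-23683497, minus strand): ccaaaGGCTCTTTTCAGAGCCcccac
Hist1h1c (H1, chr13:23739507-23739532, plus strand): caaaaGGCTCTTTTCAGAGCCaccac
Hist1h4i (H4, chr13:22040961-22040986, minus strand): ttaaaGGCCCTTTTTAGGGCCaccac
Hist1h4d (H4, chr13:23581945-23581970, plus strand): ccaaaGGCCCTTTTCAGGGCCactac
The 5 H1 and H2A members shown share the same core, and the H4 members shown carry other cores. The annotated transcript goes on past the core for 3 bases in Hist1h2ap, 35 in Hist2h2aa1, 151 in Hist1h2ae, 330 in Hist1h4i, 770 in Hist1h4d, 840 in Hist1h1c and 2010 in Hist1h2ac. No core was found in the annotated transcripts of 24 members, among them Hist1h2bc, Hist1h1b and Hist1h1a. For these it cannot be told from the annotation alone how far a transcript runs past a stem-loop.

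Kept cells had 1000 or more UMIs (unique molecular identifiers, each marking 1 captured molecule), 500 or more detected genes and no more than 10% of UMIs from mitochondrial genes. There were 10608 of them, between 2375 and 3321 per library, with median depths of 7323 to 9466 UMIs. Barcode sequences shared between libraries numbered 160, of which 52 were kept in both. Kept cells called male numbered 1218, 1155, 987 and 2425, and cells called female numbered 583, 495, 773 and 179. The remaining kept cells entered neither set. The sex mix thus differed between libraries, and ratios over all kept cells were not adjusted for it. All 12 stem cell markers were detected in every library, but their summed level was 1197, 947, 607 and 477 CPM (UMIs scaled to a common library total). Markers of other cell types were not evenly spread. The 9 markers of multipotent or lymphoid-primed progenitors summed to 512, 452, 767 and 1841 CPM, with Cd48 at 32.0, 121, 220 and 720 CPM. Cells with progenitor markers were not left out in any alternative. The 9 B lineage markers summed to 48.0, 154, 53.2 and 57.7 CPM, and Jchain gave 107 CPM of the sum in NPMc+. The 10 T lineage markers summed to 68.7, 55.2, 53.5 and 910.4 CPM in the same order, with none of them at 0, and the mast or basophil markers to 19.0, 111, 51.0 and 656 CPM. In the NPMc+/Flt3-ITD library the T lineage sum came mostly from Trbc1, Tcf7 and Lck, while Cd3e stood at 0.185 CPM. The mast or basophil sum of that library came from Cpa3 at 550 CPM, Gzmb at 80.6 and Mcpt8 at 25.1. Other markers of that list were low there, with Fcer1a at 0.630 CPM against 18.1 in NPMc+ and 2.15 in Mx. Ms4a2 was at 0.482 CPM against 1.72 in NPMc+, and Prss34 was at 0. The 8 megakaryocyte markers summed to 1011 CPM in NPMc+ and to between 213 and 286 in the others. The part of the progenitor, mast or basophil and megakaryocyte markers in the results was not tested.

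The cluster histone genes together were highest in Flt3-ITD and lowest in NPMc+/Flt3-ITD. They summed to 1372 CPM in Mx and 1449 in NPMc+, to 3031 in Flt3-ITD, but to 963 in NPMc+/Flt3-ITD. The Flt3-ITD library was 2.21-fold higher than Mx (2.18 to 2.24). The NPMc+ library was 1.06-fold higher than Mx (1.04 to 1.07), but at 0.844 of it in female cells alone. The NPMc+/Flt3-ITD library was at 0.702 of Mx (0.690 to 0.714), at 0.665 of NPMc+ (0.654 to 0.675) and at 0.318 of Flt3-ITD (0.313 to 0.322). The comparisons with Mx share that library, and those of NPMc+/Flt3-ITD share the other, so they are not independent. Per cell the same sums were 11.4, 15.3, 27.8 and 7.82 UMIs. Cells with at least 3 UMIs of the T, B or erythroid marker list were then left out as other lineages. This kept 2318 of 2519 cells in Mx, 1975 of 2375 in NPMc+ and 2190 of 2393 in Flt3-ITD. In NPMc+/Flt3-ITD it kept 1938 of 3321, so the part left out was largest there. The ratios to Mx were 1.002 for NPMc+ and 2.29 for Flt3-ITD with these cells left out. NPMc+/Flt3-ITD was then at 0.848 of Mx, at 0.846 of NPMc+ and at 0.369 of Flt3-ITD. In female cells it was at 0.920 of NPMc+.

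The sum was carried by a handful of genes. Hist1h2ap, an H2A gene at chr13:21833026-21833507 on the minus strand, gave 40.8%, 53.1% and 51.5% of the histone UMIs in the first 3 libraries, but 17.2% in NPMc+/Flt3-ITD. There the H2B gene Hist1h2bc came first with 21.1%. The 5 highest genes of each library held between 72.4% and 83.8% of its histone UMIs. Without Hist1h2ap, a choice made after its level had been seen, the 66 other members summed to 812, 679, 1469 and 797 CPM. On this sum Flt3-ITD was still 1.81-fold higher than Mx (1.78 to 1.84), and NPMc+/Flt3-ITD was at 0.543 of Flt3-ITD (0.533 to 0.552). The NPMc+/Flt3-ITD library was then level with Mx at 0.981 (0.962 to 1.001), and above NPMc+ at 1.17 (1.15 to 1.20), the opposite direction from the sum over all members. All 50-base words in the last 400 bases of the Hist1h2ap transcript also occur in other H2A genes such as Hist1h2ao, so its reads could be assigned to near-identical copies in another counting scheme. Hist1h2ao stood at 1.38, 0.598, 1.501 and 0.742 CPM.

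The histone types had different genotype ratios. H1 genes summed to 181, 235, 443 and 249 CPM, and H2B genes to 163, 182, 461 and 256 CPM. Summed over their members, both types were above Mx in all 3 mutant libraries. H1 was higher by 1.30-fold, 2.45-fold and 1.38-fold and H2B by 1.12-fold, 2.83-fold and 1.57-fold. In female cells alone, however, H2B in NPMc+ was at 0.873 of Mx. Hist1h1c alone gave 102, 177, 347 and 179 CPM of the H1 sums, and Hist1h2bc 119, 139, 366 and 203 CPM of the H2B sums. Over the 5 H1 genes with a mean of at least 5 CPM, the median log2 ratio to Mx was -0.43, 0.97 and 0.20. The H1 median was thus below Mx in NPMc+. For the 3 such H2B genes it was 0.04, 1.44 and 0.77. H2A genes summed to 921, 954, 1962 and 362 CPM, which put NPMc+/Flt3-ITD at 0.393 of Mx (0.383 to 0.402) and at 0.184 of Flt3-ITD (0.180 to 0.189). Without Hist1h2ap the H2A ratios to Mx were 0.509, 1.11 and 0.542 in the 3 mutant libraries, and NPMc+/Flt3-ITD was at 0.489 of Flt3-ITD and 1.06-fold above NPMc+. H3 genes gave few UMIs, 28.6, 20.3, 45.9 and 28.3 CPM, and H4 genes 78.6, 57.7, 119 and 68.8 CPM. These last types were lower than Mx in NPMc+, at 0.711 (0.631 to 0.802) for H3 and 0.734 (0.684 to 0.789) for H4, and higher in Flt3-ITD, by 1.61-fold (1.45 to 1.78) and 1.51-fold (1.42 to 1.61). In NPMc+/Flt3-ITD the H3 interval included 1 (0.887 to 1.10). H2A made up 67.2%, 65.8% and 64.7% of the histone UMIs in the first 3 libraries and 37.6% in NPMc+/Flt3-ITD. This contrast rested on Hist1h2ap, since without it the H2A shares were 44.5%, 27.1%, 27.2% and 24.6%, and Mx was then the library apart.

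**Figure D1:**
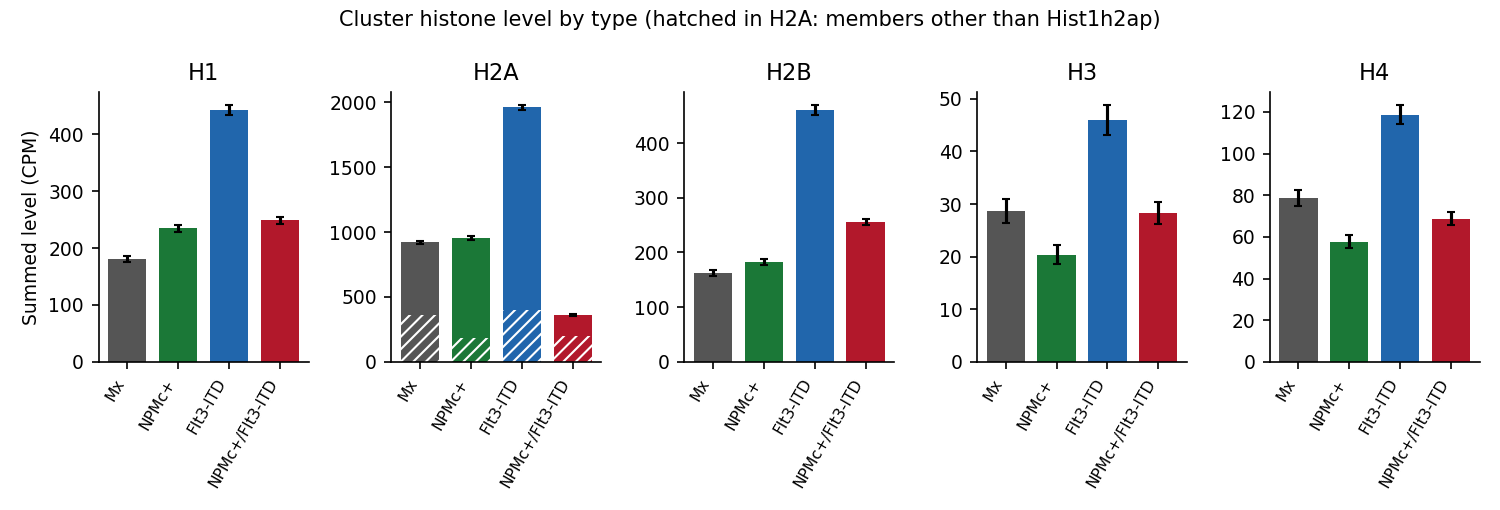
Summed level of the cluster histone genes of each type (vertical axis, CPM, from 0, with its own scale in each panel) in the 4 libraries, with 95% counting intervals; the hatched part of the H2A bars is the sum without Hist1h2ap. Flt3-ITD is the highest library for every type, and the NPMc+/Flt3-ITD bar falls below Mx most clearly for H2A, at 362 against 921 CPM.

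Of the 67 members, 20 had a mean of at least 5 CPM over the 4 libraries and were compared gene by gene, 3 of them for H2B, 2 for H3, 4 for H4, 5 for H1 and 6 for H2A. Ratios of at least 1.5-fold were counted, beside the same share among all 10234 genes at that level. Under the alternatives named below the 5 CPM floor was applied anew, so the members counted were not always these 20. The share of all genes under each alternative is not given, so those counts are not set against it. Against Mx, 11 of the 20 were higher in Flt3-ITD, where 5.19% of all genes were, and 2 were lower, where 10.2% of all genes were. The median log2 ratio of the 20 was 0.69 there, against -0.10 over all genes. In NPMc+ the balance was the other way, with 2 of 20 higher (4.91% of all genes) and 7 lower (12.9%), which were 3 and 5 under TMM scaling and 5 and 8 with mitochondrial and ribosomal protein genes left out of the total. They were 1 and 3 in thinned cells and 1 and 4 with the other lineages left out, and none was higher in female cells. In NPMc+/Flt3-ITD 6 were higher than Mx (12.8% of all genes) and 8 lower (12.2%), so the members went in both directions, and 4 and 10 with those genes left out. In female cells 3 were higher, and in thinned cells 5 were lower. Against Flt3-ITD, 13 of 20 were lower in NPMc+/Flt3-ITD (8.76% of all genes) and 1 was higher (14.3%), but none in thinned or in female cells. Against NPMc+, 6 were higher (14.4% of all genes) and 5 lower (8.64%), which were 3 and 5 under TMM scaling and 3 and 7 with those genes left out, and 3 were lower with the other lineages left out. TMM scaling shifts the median of all genes by over 0.1 in 4 of these comparisons, for instance from -0.10 to 0.04 in Flt3-ITD against Mx and from 0.25 to 0.08 in NPMc+/Flt3-ITD against Flt3-ITD.

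**Figure D2:**
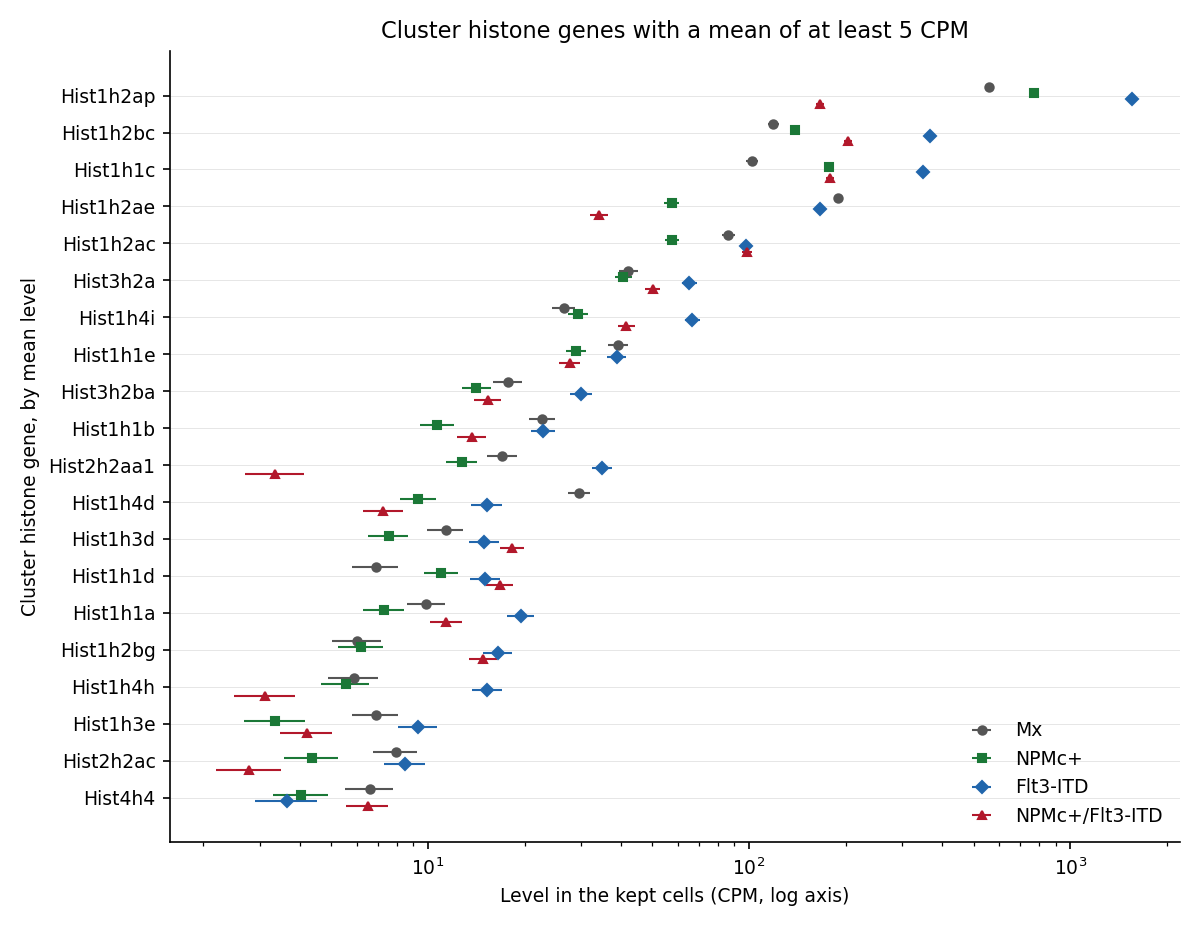
Level of each of the 20 members with a mean of at least 5 CPM (horizontal log axis, CPM) in the 4 libraries, with 95% counting intervals, ordered by mean level. Flt3-ITD is the highest library for Hist1h2ap, Hist1h2bc and Hist1h1c, whereas NPMc+/Flt3-ITD is far below the others for Hist1h2ap at 166 CPM and Hist2h2aa1 at 3.34 CPM.

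Among the H2A genes, Hist1h2ap stood at 559.8 CPM in Mx and 770.1 in NPMc+, at 1562 in Flt3-ITD, but at 166 in NPMc+/Flt3-ITD. It was 2.79-fold higher in Flt3-ITD than in Mx (2.73 to 2.85) and 9.41-fold lower in NPMc+/Flt3-ITD than in Flt3-ITD (9.12 to 9.71). In female cells alone, of which NPMc+/Flt3-ITD had 179, its ratios to Mx and to Flt3-ITD were 0.487 and 0.180, against 0.297 and 0.106 in all cells. Hist2h2aa1 (chr3:96245497-96246082, plus strand) was also highest in Flt3-ITD and lowest in NPMc+/Flt3-ITD, with 17.0, 12.8, 34.8 and 3.34 CPM. It was 10.4-fold lower in NPMc+/Flt3-ITD than in Flt3-ITD (8.36 to 13.1). Its transcript overlaps Gm20634 on the same strand and shares all 50-base words of its end with other genes, so its reads may be split between them. Hist1h2ae (chr13:23570517-23571220, minus strand) had another pattern, with 189.7 CPM in Mx and 166 in Flt3-ITD against 57.4 in NPMc+ and 34.2 in NPMc+/Flt3-ITD. Both libraries with NPMc+ were thus low, by 3.30-fold (3.11 to 3.51) and 5.55-fold (5.16 to 5.97) against Mx. Hist2h2ac (chr3:96220361-96220880, minus strand) was also lower in both of them, at 4.35 and 2.78 CPM against 7.93 in Mx and 8.46 in Flt3-ITD. In female cells its ratio of NPMc+/Flt3-ITD to Mx was 0.1605, against 0.351 in all cells. Hist1h2ac (chr13:23681467-23683948, minus strand) was lowest in NPMc+ and near equal in both libraries with Flt3-ITD, at 86.1, 57.6, 97.8 and 98.6 CPM. Its ratio of NPMc+/Flt3-ITD to Flt3-ITD was 1.01 (0.953 to 1.07). Hist3h2a (chr11:58954685-58956830, plus strand), which overlaps Trim17 on the same strand, stood at 42.1, 40.6, 65.2 and 50.1 CPM.

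All 3 H2B genes compared were highest in Flt3-ITD, and 2 of them stayed above Mx in the library with both alleles. Hist1h2bc (chr13:23684199-23692908, plus strand) stood at 119, 139, 366 and 203 CPM. It was 3.08-fold higher in Flt3-ITD than in Mx (2.94 to 3.22) and 1.71-fold higher in NPMc+/Flt3-ITD (1.63 to 1.79). Hist1h2bg (chr13:23571396-23572013, plus strand) stood at 6.02, 6.18, 16.5 and 14.8 CPM, so both libraries with Flt3-ITD were high, and the interval of their ratio included 1 (0.779 to 1.04). In female cells its ratio of NPMc+/Flt3-ITD to Mx was 1.41, against 2.47 in all cells. Hist3h2ba (chr11:58948920-58949533, plus strand) was highest in Flt3-ITD, with 17.7, 14.2, 30.0 and 15.4 CPM. Its ratio of NPMc+/Flt3-ITD to Mx was 0.867 in all cells and 1.35 in thinned cells.

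The H1 genes fell into separate patterns. Hist1h1c (chr13:23738808-23740367, plus strand), the most abundant H1 gene of the clusters, stood at 102, 177, 347 and 179 CPM. All 3 mutant libraries were above Mx, by 1.73-fold (1.65 to 1.83), 3.399-fold (3.24 to 3.57) and 1.75-fold (1.67 to 1.85). Hist1h1d (chr13:23553262-23560686, plus strand) was likewise lowest in Mx, at 6.88 CPM against 11.0, 15.1 and 16.7. Hist1h1b (chr13:21779883-21780625, minus strand) paired the libraries differently, with 22.7 CPM in Mx and 22.8 in Flt3-ITD against 10.7 in NPMc+ and 13.7 in NPMc+/Flt3-ITD. Its ratio of NPMc+ to Mx was 0.471, but 0.718 in thinned cells and 0.220 in female cells, and that of NPMc+/Flt3-ITD to NPMc+ was 1.28, but 4.18 in female cells. In female cells NPMc+/Flt3-ITD was at 0.919 of Mx and 1.13-fold above Flt3-ITD, so the pairing did not hold there. Hist1h1e (chr13:23620629-23622558, minus strand) stood between 27.6 and 39.1 CPM, with a ratio of NPMc+/Flt3-ITD to Mx of 0.707 in all cells and 1.08 in female cells. Its transcript overlaps Hist1h2be and Gm11398 on the same strand and shares all 50-base words of its end with them, so its reads may be split between these genes.

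The H3 and H4 genes were low, and their members differed from each other. Hist1h4i (chr13:22040636-22041362, minus strand) stood at 26.5, 29.4, 66.6 and 41.5 CPM, highest in Flt3-ITD and next in NPMc+/Flt3-ITD as Hist1h2bc was. Hist1h4d (chr13:23581598-23582735, plus strand) was highest in Mx at 29.6 CPM and lower in NPMc+, Flt3-ITD and NPMc+/Flt3-ITD at 9.33, 15.2 and 7.27. The library with both alleles was 4.07-fold lower than Mx (3.46 to 4.80), and in female cells the ratio was 0.144 against 0.246. Hist1h4h (chr13:23531050-23531519, plus strand) stood at 5.87, 5.54, 15.3 and 3.12 CPM, also highest in Flt3-ITD and lowest in NPMc+/Flt3-ITD. Hist4h4, the lone member on chromosome 6 (chr6:136801553-136804415, minus strand), was the only member at least 1.5-fold higher in NPMc+/Flt3-ITD than in Flt3-ITD, with 6.59, 4.03, 3.64 and 6.49 CPM. Its NPMc+ level rests on 101 UMIs and its ratio to Mx turned from 0.611 to 1.11 when cells were thinned to equal depth, where NPMc+/Flt3-ITD was at 1.05 of NPMc+ and 1.48 of Flt3-ITD. Hist1h3d (chr13:23575763-23577011, plus strand) stood at 11.4, 7.54, 15.0 and 18.3 CPM, lowest in NPMc+ and highest in NPMc+/Flt3-ITD, a 2.43-fold difference (2.05 to 2.88).

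Cells were next split by proliferation genes, since these mRNAs belong to S phase. Mki67 encodes a protein that coats mitotic chromosomes and marks cycling cells, and Top2a encodes the topoisomerase that untangles replicated DNA. Cells with at least 1 UMI of either made up 24.1%, 31.7%, 30.2% and 28.0% of the cells. After each cell was thinned to 3000 UMIs these shares were 12.3%, 14.5%, 15.0% and 15.0%, so the detection of such cells depended on depth. The library levels of both genes were close, from 23.7 to 32.0 CPM for Mki67 and from 77.5 to 81.4 CPM for Top2a. Cells without such a UMI are not thereby shown to be outside the cycle.

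Histone levels were higher in the cells with Mki67 or Top2a UMIs in every library, and least so in NPMc+/Flt3-ITD. In Mx the sum was 2260 CPM in cells with such a UMI and 958 in cells without, a ratio of 2.36 (2.30 to 2.41). In NPMc+ it was 2139 against 926 CPM, a ratio of 2.31 (2.26 to 2.36), and in Flt3-ITD 4464 against 2105 CPM, a ratio of 2.12 (2.09 to 2.15). In NPMc+/Flt3-ITD it was 1103 against 881 CPM, a ratio of 1.25 (1.22 to 1.28). The cells with UMIs of both genes stood out most, with 4815, 3780, 7577 and 1653 CPM. They were 5.64%, 9.22%, 8.61% and 5.99% of the cells and held 36.5%, 45.3%, 37.6% and 18.1% of the histone UMIs. Cells with Top2a UMIs alone were at 891, 962, 2439 and 769.6 CPM, within 1.5-fold of the cells with neither. Without Hist1h2ap the ratios were 1.63, 1.18, 1.30 and 1.10. By type, H2A genes had ratios of 2.996, 3.68, 2.99 and 1.57, but of 1.89, 1.60, 1.74 and 1.12 without Hist1h2ap, H3 genes of 2.001, 2.17, 2.62 and 1.48, and H4 genes of 1.71, 1.58, 1.68 and 1.41. H1 genes had ratios of 1.53, 0.895, 1.005 and 0.981, and H2B genes of 1.18, 1.06, 1.12 and 1.08. Erythroid markers moved with this split, summing to 64.3 CPM in cells without and 230.2 in cells with such a UMI in Mx, and to 62.2 and 161 in NPMc+/Flt3-ITD. With the cells that reached 3 UMIs of T, B or erythroid markers left out, the ratios were 1.97, 1.85, 1.89 and 1.28.

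**Figure D3:**
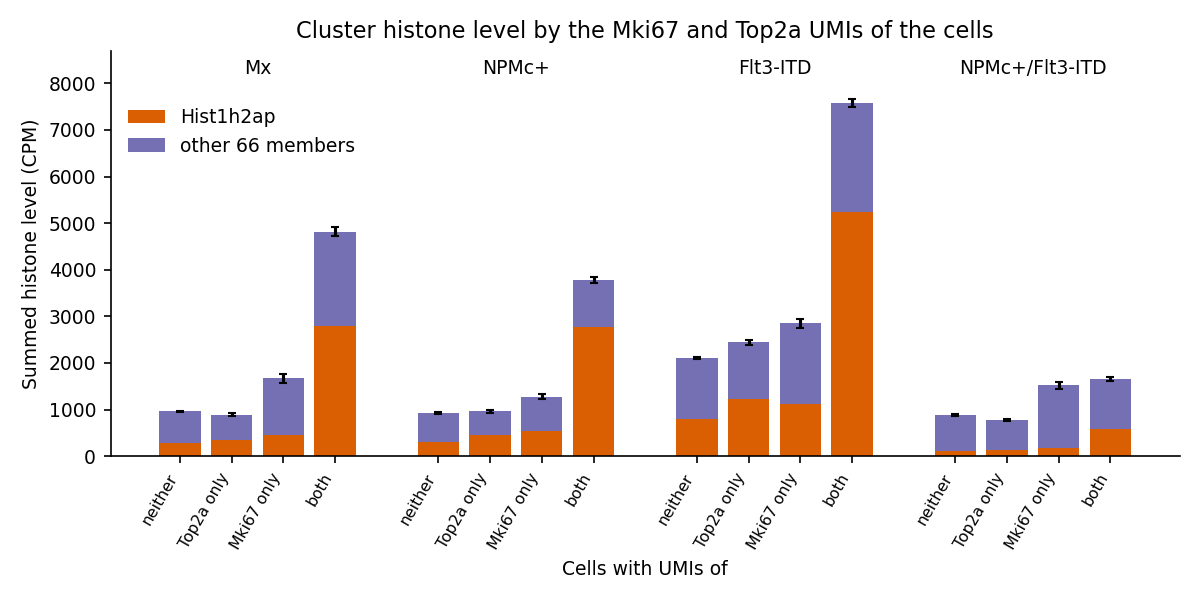
Summed level of the cluster histone genes (vertical axis, CPM, from 0) in cells of each library with UMIs of neither gene, of Top2a only, of Mki67 only or of both, with Hist1h2ap and the other 66 members stacked and 95% counting intervals on the sum. The bar for cells with both UMIs reaches 7577 CPM in Flt3-ITD but 1653 CPM in NPMc+/Flt3-ITD, where the Hist1h2ap part is 582 CPM.

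The members divided into those tied to this split and those that were not. Of the 20, 10, 10, 11 and 7 were at least 1.5-fold higher in cells with a Mki67 or Top2a UMI, where 5.29%, 4.78%, 4.93% and 4.07% of all genes were. None was at least 1.5-fold lower in any library, where 3.65%, 6.4%, 4.38% and 2.78% of all genes were. Hist1h1b had the highest ratios, 19.5 (14.4 to 27.0), 8.50 (5.96 to 12.4), 9.24 (7.19 to 12.03) and 4.15 (3.30 to 5.24). In Mx that was 64.3 CPM against 3.29 CPM. Hist1h2ap was higher in these cells by 4.10-fold, 4.70-fold, 3.49-fold and 2.31-fold. Hist2h2ac, Hist1h1a and Hist1h2ae followed, with 3.58, 3.47 and 2.53 over all libraries. Hist1h1c, the abundant H1 gene, went the other way in all 4 libraries, with ratios of 0.723, 0.684, 0.758 and 0.760. Hist1h2bc and Hist1h2ac were near equal in both classes of cells, with ranges of 0.890 to 1.01 and 0.947 to 1.06. Hist3h2a was at 0.916 over all libraries, and above 1 only in Flt3-ITD. H1 genes were thus at both ends of this order.

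**Figure D4:**
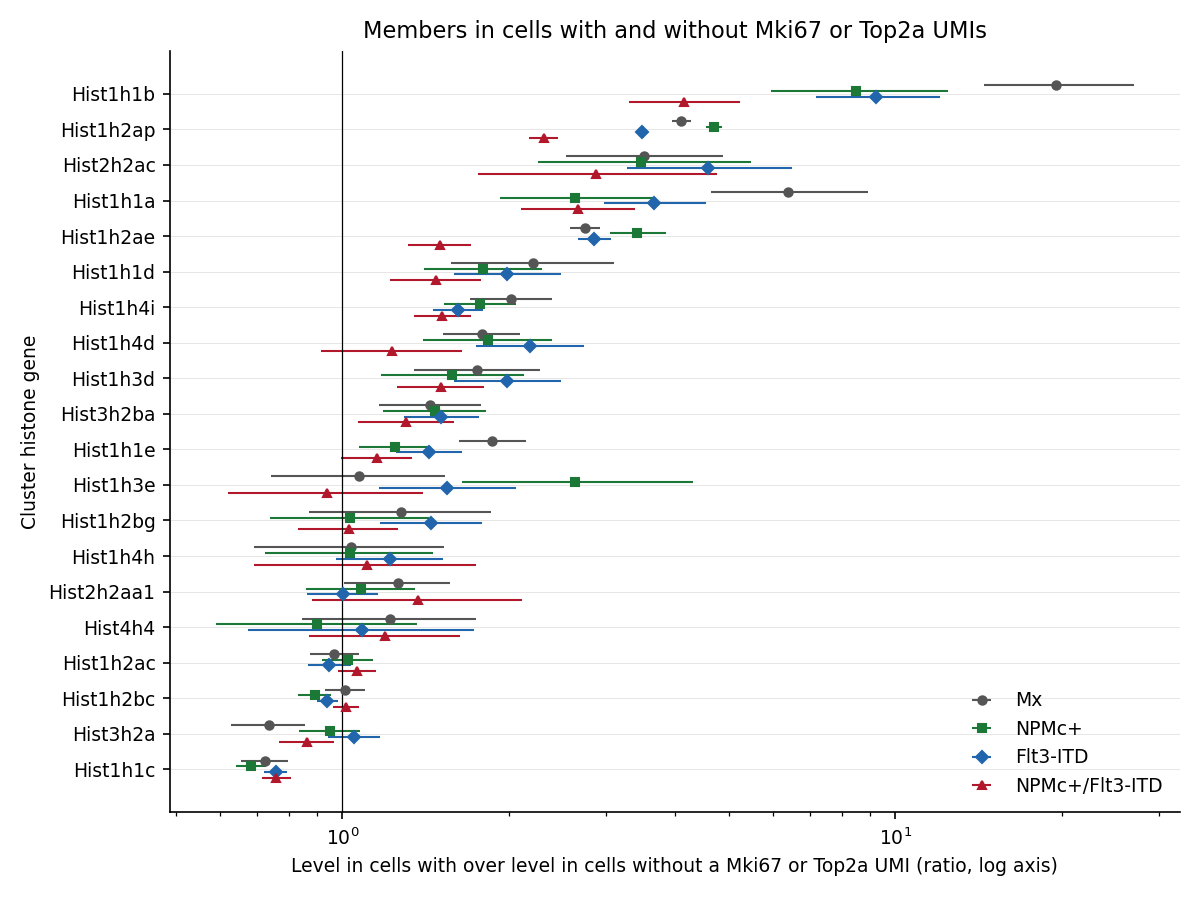
Ratio of the level in cells with a Mki67 or Top2a UMI to that in cells without (horizontal log axis) for the 20 members in each library, with 95% counting intervals and a line at 1. Hist1h1b lies furthest right, up to 19.5 in Mx, while Hist1h1c lies left of 1 in all 4 libraries.

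Flt3-ITD stood above Mx, and NPMc+/Flt3-ITD below Flt3-ITD, within both classes of cells, while the other ratios moved from those of the whole libraries. Among cells without Mki67 or Top2a UMIs, Flt3-ITD was 2.20-fold above Mx (2.15 to 2.24), and NPMc+ was at 0.966 (0.943 to 0.990), a direction that turned with TMM scaling (1.06) and in male cells alone (1.06). NPMc+/Flt3-ITD was at 0.920 of Mx (0.899 to 0.941) and at 0.419 of Flt3-ITD (0.410 to 0.427) in these cells. Its ratio to NPMc+ was 0.952 (0.930 to 0.974) there, nearer to 1 than the 0.665 of the whole libraries. Without Hist1h2ap it was 1.14-fold above Mx (1.11 to 1.17) and 1.22-fold above NPMc+ (1.19 to 1.26) in these cells, so both directions turned on that gene. Among cells with such UMIs, Flt3-ITD was 1.97-fold above Mx (1.94 to 2.01), while NPMc+/Flt3-ITD was at 0.488 of Mx (0.476 to 0.5002), 0.516 of NPMc+ (0.504 to 0.528) and 0.247 of Flt3-ITD (0.242 to 0.252). Without Hist1h2ap these were 0.765, 1.13 and 0.494. NPMc+ was at 0.946 of Mx in cells with such UMIs. The difference between these classes of cells was not tested against the spread between animals. Hist1h2ap was at 0.141 of Flt3-ITD in the NPMc+/Flt3-ITD cells without, and at 0.0939 in those with, such UMIs. Hist1h1c was higher than Mx by 3.43-fold and 3.59-fold in the corresponding cells of Flt3-ITD. For Hist1h1b the ratio of NPMc+/Flt3-ITD to Mx was 1.93 in cells without and 0.409 in cells with these UMIs, opposite directions that the library sum of 0.605 does not show.

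The cells with Mki67 or Top2a UMIs were split further, after thinning to 3000 UMIs, by UMIs of 14 S phase genes such as Rrm2 and Cdc6 and of 14 mitotic genes such as Ccnb1 and Plk1. Cells with UMIs of both sets had the most histone UMIs in Mx, NPMc+ and Flt3-ITD, 12.2 (11.7 to 12.8), 11.5 (11.1 to 12.04) and 20.5 (19.9 to 21.1) per cell. In NPMc+/Flt3-ITD such cells had 4.68 (4.43 to 4.94), below the 6.14 (5.68 to 6.64) of cells with UMIs of the mitotic set alone. In the first 3 libraries cells with the mitotic set alone had 7.39, 7.04 and 11.8. Cells with UMIs of the S phase set alone had 2.85, 3.19, 7.24 and 1.93 per cell, and cells with neither set 2.76, 2.31, 6.83 and 2.14. Hist1h2ap gave 6.89, 8.07, 13.5 and 1.25 of the UMIs per cell in cells with both sets. In cells with the mitotic set alone it gave 2.5, 3.66, 4.79 and 0.625. The higher level of cells with both sets over these cells in Mx, NPMc+ and Flt3-ITD thus rested mostly on Hist1h2ap. The classes of cells with both sets held 135, 188, 231 and 288 cells.

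Members whose annotated transcripts end close to the stem-loop were far lower in NPMc+/Flt3-ITD than in Flt3-ITD, and members with long extensions were less so. Members were grouped after their values had been seen, by whether the annotated transcript ends within 100 bases of the stem-loop core. The 22 members that do, of which 4 were at the 5 CPM floor, summed to 612, 814, 1672 and 189 CPM. The 21 members with at least 100 annotated bases past the core, 13 at the floor, summed to 583, 457, 904 and 529 CPM. The first group was 8.84-fold lower in NPMc+/Flt3-ITD than in Flt3-ITD (8.59 to 9.11), and the second 1.71-fold lower (1.67 to 1.75). Without Hist1h2ap the first group was still 4.76-fold lower (4.36 to 5.21), from 109.9 to 23.1 CPM. Gene by gene, the 4 members at the floor in the first group, Hist1h2ap, Hist2h2aa1, Hist1h4h and Hist2h2ac, had ratios of 0.0960 to 0.329. The 13 in the second group ranged from 0.206 for Hist1h2ae, which has 151 bases past the core, to 1.78 for Hist4h4, which has 2445. Across these 17 members the rank correlation of the ratio with the annotated length was 0.83. It was 0.56 for NPMc+/Flt3-ITD against Mx, 0.65 against NPMc+, -0.34 for Flt3-ITD against Mx and 0.03 for NPMc+ against Mx. These are descriptions over genes of the same libraries, with comparisons that share the NPMc+/Flt3-ITD library, and genes are not independent replicates. With 1 library per genotype, a difference between genotypes cannot be told apart from a difference in how the libraries captured such transcript ends. Annotated length was also mixed with shared sequence and histone type. Hist1h2ap, Hist2h2aa1, Hist1h4h and Hist2h2ac share 100%, 100%, 55.0% and 33.9% of the words at their ends with other genes. All of them but Hist1h4h are H2A genes. In the second group the shared part ranged from 0% for Hist1h1c to 100% for Hist1h1e. The part of read assignment and of histone type in these ratios was not tested.

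**Figure D5:**
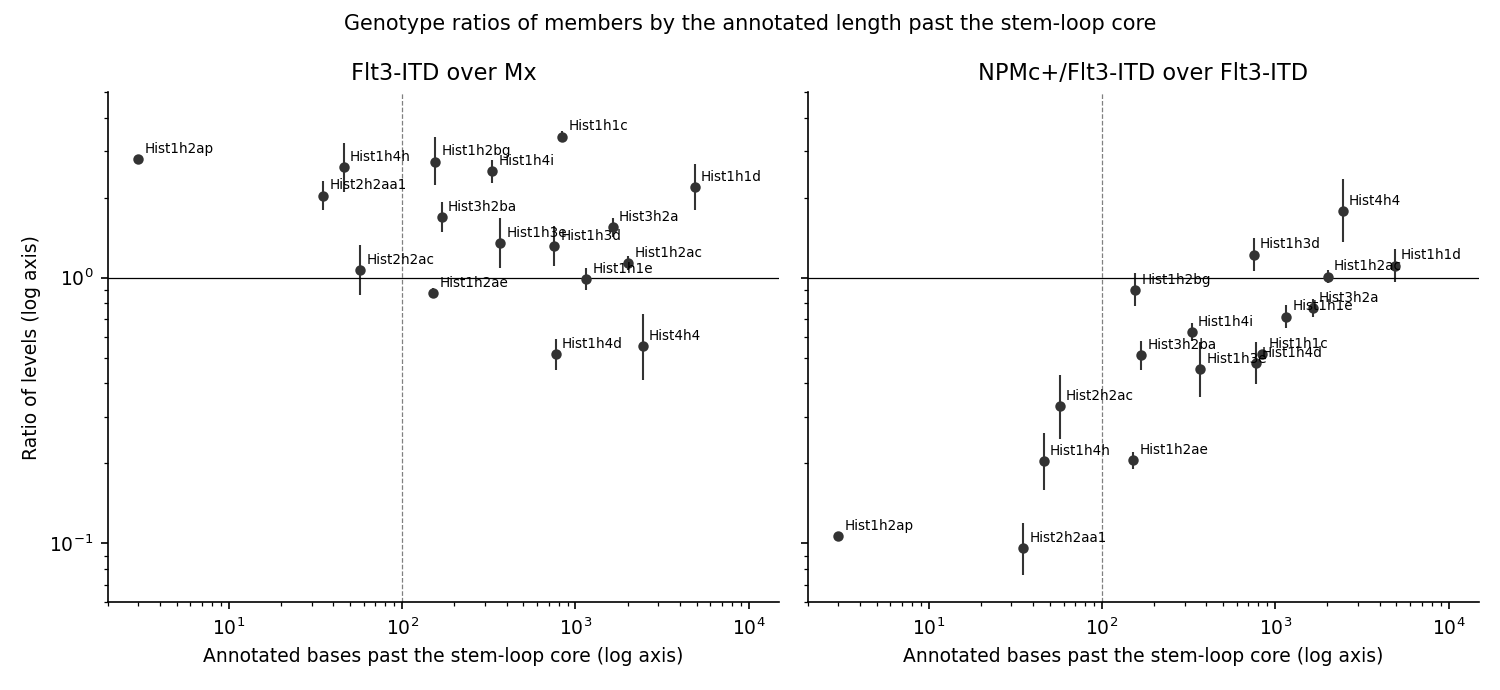
Ratio of levels (vertical log axis) in Flt3-ITD over Mx (left) and NPMc+/Flt3-ITD over Flt3-ITD (right) against the annotated bases past the stem-loop core (horizontal log axis) for the 17 members at 5 CPM with a core, with 95% counting intervals, a line at a ratio of 1 and a dashed line at 100 bases. On the right the 4 members left of the dashed line lie at 0.0960 to 0.329, and the 3 members with the longest extensions, Hist1h1d, Hist4h4 and Hist1h2ac, lie near or above 1.

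The group that ends near the stem-loop also had the higher ratios between cells with and without a Mki67 or Top2a UMI, 3.93, 4.46, 3.38 and 2.28. Without Hist1h2ap these ratios were 2.52, 2.12, 2.25 and 2.03. In the group with at least 100 bases past the core they were 1.51, 1.12, 1.24 and 1.02. The members of the first group differed, from 1.10 for Hist2h2aa1 and 1.15 for Hist1h4h to 3.58 for Hist2h2ac and 3.88 for Hist1h2ap, summed over libraries. The 24 members with no core found, led by Hist1h2bc, gave 1.84, 1.18, 1.25 and 1.20. A poly(A) signal (AATAAA or ATTAAA) in the last 40 bases was annotated for 14 members, 7 of them at the floor. These 14 summed to 406 CPM in Mx and 346 in NPMc+/Flt3-ITD, and the other 53 to 966 and 617 CPM. Hist1h2ap, without such a signal, gave 560 and 166 CPM of the sums of the 53. The lower sum of the 53 in NPMc+/Flt3-ITD is therefore not separated from the level of that gene.

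Many H2A and H2B genes lie head to head and share the stretch between their starts. There were 12 pairs of members on opposite strands with starts within 500 bases, and in 2 of them both partners were at the floor. In the pair Hist1h2ac and Hist1h2bc, 251 bases apart, the H2B partner was 3.08-fold higher in Flt3-ITD than in Mx while the H2A partner was 1.14-fold higher (1.07 to 1.21). In the pair Hist1h2ae and Hist1h2bg, 176 bases apart, the H2B partner was 2.74-fold higher (2.23 to 3.38) and the H2A partner was at 0.875 (0.836 to 0.915). In NPMc+/Flt3-ITD against Mx the second pair differed more, at 2.47 for Hist1h2bg and 0.180 for Hist1h2ae.

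The shared stretches are shown as RefSeq promoters (GRCm38.p6, from 250 bases before to 50 after the start) of 1 partner of each pair, chosen because the partners' levels differed between libraries. Capitals mark the motifs searched: TATAAA on the gene's strand, and CCAAT and ATTTGCAT on both strands.
Hist1h2ac (chr13:23683910-23684209, minus strand): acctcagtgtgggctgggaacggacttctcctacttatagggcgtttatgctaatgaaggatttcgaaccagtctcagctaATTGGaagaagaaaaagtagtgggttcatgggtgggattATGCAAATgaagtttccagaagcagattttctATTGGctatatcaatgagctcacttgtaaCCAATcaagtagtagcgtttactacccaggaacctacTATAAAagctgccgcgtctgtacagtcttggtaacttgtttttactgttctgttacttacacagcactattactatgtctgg
Hist1h2bg (chr13:23571150-23571449, plus strand): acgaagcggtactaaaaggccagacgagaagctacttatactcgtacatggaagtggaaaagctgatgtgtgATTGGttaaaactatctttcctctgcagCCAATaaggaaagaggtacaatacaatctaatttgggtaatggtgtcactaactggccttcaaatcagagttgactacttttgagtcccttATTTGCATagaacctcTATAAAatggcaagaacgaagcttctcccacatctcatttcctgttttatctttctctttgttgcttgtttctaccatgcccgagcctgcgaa
Promoters were matched by position for 58 of the 67 members. CCAAT was found in 84.5% of them, against 37.4% of 32851 RefSeq promoters of the same length, TATAAA in 48.3% against 8.32%, and ATTTGCAT in 20.7% against 1.74%. ATTTGCAT was found in 7 of 18 H2A and 5 of 14 H2B promoters and in none of the 5 H1, 9 H3 and 12 H4 promoters. CCAAT was found in all matched H1, H2A, H2B and H3 promoters and in 3 of the 12 of H4. The windows of head-to-head partners overlap, so the same site can count for both, as the octamer of Hist1h2ae and Hist1h2bg (ATTTGCAT) does. The promoters counted are therefore not all separate sequences. A match describes the letters of the window and is not evidence that a factor binds there.

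The clusters themselves lie on few chromosomes. The 54 members on chromosome 13 gave 1269.7, 1365, 2873 and 875 CPM. The 9 on chromosome 3 gave 35.9, 25.05, 58.3 and 16.5 CPM, and the 3 on chromosome 11 gave 59.9, 54.8, 95.6 and 65.6. The chromosome 3 and 13 sums had NPMc+/Flt3-ITD as the lowest library, while on chromosome 11 it was NPMc+. Single genes weighed on these sums. Hist1h2ap alone gave 560, 770, 1562 and 166 CPM on chromosome 13, and Hist2h2aa1 17.0, 12.8, 34.8 and 3.34 CPM on chromosome 3. The order of the libraries by chromosome is therefore not separated from the levels of these genes. The 47 members under the floor gave 6352 UMIs in all. They include 3 annotated pseudogenes, and 39 of the 67 members share over 50% of the 50-base words at their ends with other genes, 5 of them at the floor. Single-gene values of these are uncertain for that reason, and the 47 were not compared one by one.

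Histones coded outside the clusters were measured in the same cells. Of 11 such genes, 1, 3 and 3 were at least 1.5-fold higher than Mx in the 3 mutant libraries, and 1, 0 and 0 were lower. The shares of all 10234 genes were 4.91%, 5.19% and 12.8% higher, and 12.9%, 10.2% and 12.2% lower. H3f3b, which encodes the replacement histone H3.3, stood at 3203, 4210, 6809 and 4228 CPM, highest in Flt3-ITD at 2.13-fold over Mx. H2afz, which encodes H2A.Z, stood at 991, 1360, 1283 and 1581 CPM and was highest in NPMc+/Flt3-ITD, where the cluster H2A genes were lowest. The macroH2A genes H2afy and H2afy2 were also highest there, at 1187 and 26.9 CPM against 580.4 and 7.78 in Mx. H2afy2 was 5.53-fold higher in NPMc+/Flt3-ITD than in NPMc+ (4.56 to 6.76). Within libraries, H2afx, which is known to give both stem-loop and polyadenylated mRNA, was 2.31-fold to 3.46-fold higher in cells with a Mki67 or Top2a UMI, and H3f3b was lower in them in all 4 libraries (0.850 to 0.918).

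Most genes that make and process histone mRNA lay within 1.5-fold of Mx, as did most of all genes at the floor. Of all genes, 4.91%, 5.19% and 12.8% were higher in the 3 mutant libraries, and 12.9%, 10.2% and 12.2% lower. Of 17 measured genes for transcription and 3′ end processing, 1 was at least 1.5-fold higher and 1 lower in NPMc+ than in Mx, none in Flt3-ITD, and 2 were higher in NPMc+/Flt3-ITD. Slbp, the stem-loop binding protein gene, stood at 138, 132, 159 and 195 CPM, highest in NPMc+/Flt3-ITD. Npat, the activator of histone gene transcription, stood at 13.5, 10.8, 10.0 and 11.4 CPM. Eri1, which encodes an exonuclease that trims histone mRNA ends, was at 75.9 CPM in NPMc+/Flt3-ITD and between 43.6 and 44.9 in the others. Lsm10, part of the U7 particle that cuts at the stem-loop, was at 71.4 CPM there and between 42.0 and 50.6 elsewhere, and Casp8ap2 was lowest in NPMc+ at 23.8 CPM against 37.7 in Mx. Slbp was also higher in cells with a Mki67 or Top2a UMI, by 1.71-fold to 2.05-fold.

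Most histone chaperones were also within 1.5-fold, with 1 of 24 higher and 1 lower in NPMc+ than in Mx, 0 in Flt3-ITD, and 2 higher in NPMc+/Flt3-ITD. For this and the next lists, the shares of all genes were 4.91%, 5.19% and 12.8% higher, and 12.9%, 10.2% and 12.2% lower. Atrx, a remodeler that acts in H3.3 deposition, was the lower gene, at 87.3 CPM in NPMc+ against 179 in Mx, and Anp32e, the H2A.Z chaperone, was 1.84-fold higher in NPMc+/Flt3-ITD (1.76 to 1.92). Asf1b, a chaperone of newly made H3 and H4, stood at 31.2 CPM in NPMc+ and 19.1 in Mx. Most S phase genes were too, with 1, 2 and 4 of 35 measured genes at least 1.5-fold higher than Mx in the 3 mutant libraries and 2, 0 and 0 lower. Rrm2, which makes DNA precursors, stood at 32.8, 42.4, 56.4 and 54.3 CPM, E2f8 at 7.54, 13.2, 8.55 and 8.20, and Pola1 at 27.5, 16.8, 24.2 and 18.5. G2 and M phase genes stood apart from both, with 22, 18 and 13 of 30 higher than Mx and 1, 0 and 0 lower. Ube2c was 3.63-fold higher in NPMc+ than in Mx (3.26 to 4.05), Plk1 2.84-fold (2.32 to 3.48) and Ccnb1 2.61-fold (2.27 to 3.01). In NPMc+/Flt3-ITD against Flt3-ITD, where the cluster histone genes differed most, none of the 35 S phase and none of the 30 G2 and M phase genes was past 1.5-fold in either direction. Of all genes, 14.3% were higher and 8.76% lower in that comparison.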

How the data were processed

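The values were UMI counts per gene and cell barcode, raw tables as deposited by the authors; the submitters' processing notes name STARsolo, STAR 2.7.0c and the build mm10. The gene annotation and strand setting used for counting are not given in the sources used here. The libraries were made with a single-cell 3′ kit from poly(A) RNA, per the labels' protocols. Doublets were not called or removed here. UMIs were summed over kept cells per library and given as CPM. Ratios carry exact binomial (Clopper-Pearson) intervals and levels exact Poisson intervals, computed in Python 3.11.15 with scipy 1.17.1. UMI totals of the kept cells were between 20943905 and 26965367 per library. With 1 library per genotype, no test between genotypes was possible.

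Genes with a mean of at least 5 CPM over the 4 libraries entered counts of ratios at least 1.5-fold from 1. Named members were the 12 highest, the highest of each type, and those with the 3 most extreme ratios at either end in a comparison or between cells with and without a Mki67 or Top2a UMI; named other genes were the 3 furthest from a ratio of 1 in each list, with Mki67, Top2a, Slbp and Npat. Hist1h1a, H2afz, H2afx, Hist1h2ao and the marker genes were named after their values were seen. The members, lists and tests were chosen with earlier results of these data known. Alternatives were TMM factors (edgeR 4.0.16), leaving mitochondrial and ribosomal protein genes out of the total, a stricter cell filter, thinning to 3000 UMIs, the top 1% of histone cells left out, cells of other lineages left out, male or female cells, other floors and folds, and other definitions of positive cells. Leaving out Hist1h2ap and the grouping by the annotated length past the stem-loop were chosen after seeing the data. Coordinates and transcripts came from GENCODE M21, which held all 67 members, and promoters from RefSeq (GRCm38.p6). The calculation of ratios and the thinning were tested on simulated data.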

Additional observations from a re-analysis of the deposited data

Results flagged for a closer look

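Several differences went in opposite directions on different backgrounds, each past 1.5-fold both ways in all kept cells. They are given as the difference of the log2 ratios, and with 1 library per genotype none of these differences was tested. Adding Flt3-ITD went with a higher sum of all members over Mx (2.21-fold) and a lower sum over NPMc+ (0.665), a difference of -1.73. The second ratio was 0.764 in thinned cells, 0.678 without the top 1% of histone cells, 0.846 with other lineages left out and 0.920 in female cells, all short of 1.5-fold, and without Hist1h2ap it turned to 1.17. For the H2A genes the same ratios were 2.13 and 0.379, a difference of -2.49, but without Hist1h2ap they were 1.11 and 1.06, so the opposite directions rested on that gene. Hist1h2ap had ratios of 2.79 and 0.216, a difference of -3.69, Hist2h2aa1 2.04 and 0.261, a difference of -2.96, and Hist1h4h 2.60 and 0.562, a difference of -2.21. These 3 genes stayed past 1.5-fold both ways under each of the 8 alternatives run for single members. Adding NPMc+ went with more Hist1h1c over Mx (1.73) and less over Flt3-ITD (0.516), a difference of -1.75, with 1.37 for the first ratio in female cells. Hist4h4 went the other way for both alleles, with a difference of 1.54 each, from ratios of 0.611 and 1.78 for NPMc+ and 0.552 and 1.61 for Flt3-ITD. In thinned cells these ratios were 1.11 and 1.48 for NPMc+ and 0.783 and 1.05 for Flt3-ITD, and in female cells 0.742 and 1.47 and 0.606 and 1.20. Under TMM scaling 0.675 for NPMc+ over Mx and 1.43 for NPMc+/Flt3-ITD over NPMc+ also fell short of 1.5-fold. So did NPMc+ over Mx with other lineages left out (0.671) and in male cells (0.694). NPMc+/Flt3-ITD over NPMc+ fell short as well, at 1.44, with mitochondrial and ribosomal protein genes left out of the total.

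Barcodes under 1000 UMIs, which entered no comparison, held more histone UMIs in NPMc+ than in Mx. Their histone level was 2707 CPM in NPMc+ (2143 to 3374), from 79 UMIs in 96 barcodes, against 991 CPM in Mx (726 to 1322), from 46 UMIs in 206 barcodes. The Flt3-ITD barcodes were at 1515 CPM and those of NPMc+/Flt3-ITD at 811 CPM. In the kept cells of NPMc+ the level was 1449 CPM.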

How the results depend on the processing

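No paired analysis was possible because each genotype was 1 library and the replicate numbers only name it. A stricter filter (2000 UMIs, 1000 genes, 5.0% mitochondrial UMIs) moved none of the 39 summed, type, class and count results out of its counting interval or by over 1.5 times, nor any of the 90 single-member ratios. With cells not split by Mki67 or Top2a UMIs, the sum over all members kept its highest and lowest library under every scaling and choice of cells tried. Mx and NPMc+, which lay between them, changed places in female cells. Flt3-ITD was highest and NPMc+/Flt3-ITD lowest, with NPMc+/Flt3-ITD over Flt3-ITD between 0.282 and 0.369. That ratio was 0.419 in cells with neither UMI and 0.247 in cells with either. In cells with neither UMI, NPMc+/Flt3-ITD was above NPMc+ with other lineages left out and in female cells. Leaving out Hist1h2ap, a choice made after seeing the data, put NPMc+/Flt3-ITD above NPMc+ and left its ratio to Mx near 1. Among single members, Hist1h1b in NPMc+/Flt3-ITD over Flt3-ITD reversed to 1.13 in female cells, of which that library had 179, and Hist4h4 in NPMc+ over Mx reversed to 1.11 in thinned cells. A smaller total raises every CPM, so more members reach the floor when mitochondrial and ribosomal protein genes leave it, and lower or higher floors and folds change the counts by their construction. The number of members at the floor and the share of all genes under each alternative are not given. The counts of members below can therefore not be read as shares or set against the main counts. The causes of the other shifts were not tested. Depth limits the single-gene values of the members under the floor. The values outside the counting interval, or counts moved by over 1.5 times, follow for each alternative.

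TMM scaling gave summed ratios of 1.17 for NPMc+ over Mx, 2.44 for Flt3-ITD over Mx, 0.689 for NPMc+/Flt3-ITD over Mx, 0.282 for NPMc+/Flt3-ITD over Flt3-ITD and 0.591 for NPMc+/Flt3-ITD over NPMc+. There, 1.44 for H1, 1.14 for H2A, 1.23 for H2B and 0.810 for H4 were the type ratios of NPMc+ over Mx. Under TMM scaling, type ratios of Flt3-ITD over Mx were 2.71 for H1, 2.35 for H2A, 3.13 for H2B and 1.67 for H4. It gave ratios in cells with neither UMI of 1.06 for NPMc+ over Mx, 2.39 for Flt3-ITD over Mx, 0.893 for NPMc+/Flt3-ITD over Mx, 0.373 for NPMc+/Flt3-ITD over Flt3-ITD and 0.844 for NPMc+/Flt3-ITD over NPMc+. Also under TMM scaling, counts of higher members were 3 in NPMc+/Flt3-ITD over NPMc+. Leaving mitochondrial and ribosomal protein genes out of the total gave summed ratios of 1.03 for NPMc+ over Mx, 2.14 for Flt3-ITD over Mx, 0.609 for NPMc+/Flt3-ITD over Mx, 0.285 for NPMc+/Flt3-ITD over Flt3-ITD and 0.593 for NPMc+/Flt3-ITD over NPMc+. Values of 1.19 for H1, 0.341 for H2A, 1.36 for H2B, 0.857 for H3 and 0.759 for H4 were the type ratios of NPMc+/Flt3-ITD over Mx. The alternative gave 1.01 for H2A as type ratios of NPMc+ over Mx. Likewise 2.06 for H2A were the type ratios of Flt3-ITD over Mx. There, 0.938 for NPMc+ over Mx, 2.13 for Flt3-ITD over Mx, 0.793 for NPMc+/Flt3-ITD over Mx, 0.373 for NPMc+/Flt3-ITD over Flt3-ITD and 0.845 for NPMc+/Flt3-ITD over NPMc+ were the ratios in cells with neither UMI. Without those genes in the total, counts of higher members were 5 in NPMc+ over Mx and 3 in NPMc+/Flt3-ITD over NPMc+. It gave counts of lower members of 21 in NPMc+/Flt3-ITD over Flt3-ITD. Thinning to 3000 UMIs gave summed ratios of 2.31 for Flt3-ITD over Mx, 0.797 for NPMc+/Flt3-ITD over Mx, 0.345 for NPMc+/Flt3-ITD over Flt3-ITD and 0.764 for NPMc+/Flt3-ITD over NPMc+. Also in thinned cells, type ratios of NPMc+ over Mx were 1.48 for H1, 0.951 for H2A and 0.820 for H4. Values of 2.81 for H1 were the type ratios of Flt3-ITD over Mx. The alternative gave 1.53 for H1 and 0.451 for H2A as type ratios of NPMc+/Flt3-ITD over Mx. Likewise 1.01 for NPMc+ over Mx, 2.34 for Flt3-ITD over Mx, 0.388 for NPMc+/Flt3-ITD over Flt3-ITD and 0.897 for NPMc+/Flt3-ITD over NPMc+ were the ratios in cells with neither UMI. There, 2.79 in Mx, 2.77 in NPMc+, then 2.35 in Flt3-ITD, with 1.47 in NPMc+/Flt3-ITD were the ratios of cells with to cells without a UMI. In thinned cells, counts of higher members were 1 in NPMc+ over Mx and 0 in NPMc+/Flt3-ITD over Flt3-ITD. It gave counts of lower members of 3 in NPMc+ over Mx, 1 in Flt3-ITD over Mx and 5 in NPMc+/Flt3-ITD over Mx. Leaving out the top 1% of histone cells gave summed ratios of 1.14 for NPMc+ over Mx, 2.39 for Flt3-ITD over Mx, 0.770 for NPMc+/Flt3-ITD over Mx, 0.323 for NPMc+/Flt3-ITD over Flt3-ITD and 0.678 for NPMc+/Flt3-ITD over NPMc+. Also without the top 1% of cells, type ratios of NPMc+ over Mx were 1.39 for H1 and 1.13 for H2A. Values of 2.59 for H1 and 2.34 for H2A were the type ratios of Flt3-ITD over Mx. The alternative gave 0.456 for H2A, 1.51 for H2B and 0.941 for H4 as type ratios of NPMc+/Flt3-ITD over Mx. Likewise 0.887 for NPMc+/Flt3-ITD over Mx, 0.404 for NPMc+/Flt3-ITD over Flt3-ITD and 0.915 for NPMc+/Flt3-ITD over NPMc+ were the ratios in cells with neither UMI. There, 1.82 in Mx, 2.09 in NPMc+ and 1.93 in Flt3-ITD were the ratios of cells with to cells without a UMI. Leaving out cells of other lineages gave summed ratios of 1.0023 for NPMc+ over Mx, 2.29 for Flt3-ITD over Mx, 0.848 for NPMc+/Flt3-ITD over Mx, 0.369 for NPMc+/Flt3-ITD over Flt3-ITD and 0.846 for NPMc+/Flt3-ITD over NPMc+. Without other lineages, type ratios of NPMc+ over Mx were 1.45 for H1 and 0.912 for H2A. It gave type ratios of Flt3-ITD over Mx of 2.62 for H1 and 2.20 for H2A. Also without other lineages, type ratios of NPMc+/Flt3-ITD over Mx were 1.66 for H1, 0.476 for H2A, 1.68 for H2B, 1.19 for H3 and 0.963 for H4. Values of 0.983 for NPMc+/Flt3-ITD over Mx, 0.447 for NPMc+/Flt3-ITD over Flt3-ITD and 1.01 for NPMc+/Flt3-ITD over NPMc+ were the ratios in cells with neither UMI. The alternative gave 1.97 in Mx, 1.85 in NPMc+, then 1.89 in Flt3-ITD, with 1.28 in NPMc+/Flt3-ITD as ratios of cells with to cells without a UMI. Likewise 1 in NPMc+ over Mx were the counts of higher members. There, 4 in NPMc+ over Mx and 3 in NPMc+/Flt3-ITD over NPMc+ were the counts of lower members. Male cells alone gave summed ratios of 1.15 for NPMc+ over Mx, 2.38 for Flt3-ITD over Mx, 0.740 for NPMc+/Flt3-ITD over Mx, 0.311 for NPMc+/Flt3-ITD over Flt3-ITD and 0.642 for NPMc+/Flt3-ITD over NPMc+. In male cells, type ratios of NPMc+ over Mx were 1.46 for H1, 1.10 for H2A, 1.32 for H2B and 0.819 for H4. It gave type ratios of Flt3-ITD over Mx of 2.64 for H1, 2.26 for H2A, 3.28 for H2B, 1.87 for H3 and 1.64 for H4. Also in male cells, type ratios of NPMc+/Flt3-ITD over Mx were 0.415 for H2A, 1.76 for H2B and 0.942 for H4. Values of 1.06 for NPMc+ over Mx, 2.38 for Flt3-ITD over Mx, 0.946 for NPMc+/Flt3-ITD over Mx, 0.397 for NPMc+/Flt3-ITD over Flt3-ITD and 0.892 for NPMc+/Flt3-ITD over NPMc+ were the ratios in cells with neither UMI. The alternative gave 2.21 in NPMc+ and 1.95 in Flt3-ITD as ratios of cells with to cells without a UMI. Female cells alone gave summed ratios of 0.844 for NPMc+ over Mx, 2.13 for Flt3-ITD over Mx, 0.777 for NPMc+/Flt3-ITD over Mx, 0.364 for NPMc+/Flt3-ITD over Flt3-ITD and 0.920 for NPMc+/Flt3-ITD over NPMc+. Likewise 1.08 for H1, 0.824 for H2A, 0.873 for H2B, 0.526 for H3 and 0.559 for H4 were the type ratios of NPMc+ over Mx. There, 1.60 for H1, 0.519 for H2A, 1.19 for H2B and 0.743 for H4 were the type ratios of NPMc+/Flt3-ITD over Mx. In female cells, type ratios of Flt3-ITD over Mx were 2.09 for H2A, 2.48 for H2B and 1.45 for H3. It gave ratios in cells with neither UMI of 0.744 for NPMc+ over Mx, 1.89 for Flt3-ITD over Mx, 0.834 for NPMc+/Flt3-ITD over Mx, 0.441 for NPMc+/Flt3-ITD over Flt3-ITD and 1.12 for NPMc+/Flt3-ITD over NPMc+. Also in female cells, ratios of cells with to cells without a UMI were 1.97 in Mx, 2.48 in Flt3-ITD, with 1.57 in NPMc+/Flt3-ITD. Values of 0 in NPMc+ over Mx, 3 in NPMc+/Flt3-ITD over Mx and 0 in NPMc+/Flt3-ITD over Flt3-ITD were the counts of higher members. Leaving out Hist1h2ap gave summed ratios of 0.836 for NPMc+ over Mx, 1.81 for Flt3-ITD over Mx, 0.981 for NPMc+/Flt3-ITD over Mx, 0.543 for NPMc+/Flt3-ITD over Flt3-ITD and 1.17 for NPMc+/Flt3-ITD over NPMc+. The alternative gave 0.930 for NPMc+ over Mx, 1.94 for Flt3-ITD over Mx, 1.14 for NPMc+/Flt3-ITD over Mx, 0.585 for NPMc+/Flt3-ITD over Flt3-ITD and 1.22 for NPMc+/Flt3-ITD over NPMc+ as ratios in cells with neither UMI. Likewise 1.63 in Mx, 1.18 in NPMc+, then 1.30 in Flt3-ITD, with 1.10 in NPMc+/Flt3-ITD were the ratios of cells with to cells without a UMI. Cells with both UMIs against neither gave ratios of cells with to cells without a UMI of 5.02 in Mx, 4.08 in NPMc+, then 3.60 in Flt3-ITD, with 1.88 in NPMc+/Flt3-ITD. Requiring at least 2 UMIs gave ratios of cells with to cells without a UMI of 3.51 in Mx, 3.31 in NPMc+, then 3.01 in Flt3-ITD, with 1.5 in NPMc+/Flt3-ITD. A floor of 1 CPM gave counts of higher members of 8 in NPMc+ over Mx and 30 in Flt3-ITD over Mx. There, 12 in NPMc+ over Mx, 18 in NPMc+/Flt3-ITD over Mx, 35 in NPMc+/Flt3-ITD over Flt3-ITD and 16 in NPMc+/Flt3-ITD over NPMc+ were the counts of lower members. A floor of 20 CPM gave counts of higher members of 1 in NPMc+ over Mx, 5 in Flt3-ITD over Mx, 3 in NPMc+/Flt3-ITD over Mx, 0 in NPMc+/Flt3-ITD over Flt3-ITD and 1 in NPMc+/Flt3-ITD over NPMc+. With that higher floor, counts of lower members were 1 in NPMc+ over Mx, 0 in Flt3-ITD over Mx, 2 in NPMc+/Flt3-ITD over Mx, 5 in NPMc+/Flt3-ITD over Flt3-ITD and 2 in NPMc+/Flt3-ITD over NPMc+. A 2-fold threshold gave counts of higher members of 0 in NPMc+ over Mx, 2 in NPMc+/Flt3-ITD over Mx, 0 in NPMc+/Flt3-ITD over Flt3-ITD and 2 in NPMc+/Flt3-ITD over NPMc+. It gave counts of lower members of 4 in NPMc+ over Mx, 0 in Flt3-ITD over Mx, 5 in NPMc+/Flt3-ITD over Mx, 7 in NPMc+/Flt3-ITD over Flt3-ITD and 2 in NPMc+/Flt3-ITD over NPMc+.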
